A study of Mus musculus with 8 samples.

Results

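The genes described here are 10 integrin subunits of mouse dendritic cells, the alpha chains Itga4, Itga5, Itgal, Itgam, Itgav and Itgax and the beta chains Itgb1, Itgb2, Itgb5 and Itgb7. They were chosen by gene name, with earlier results of these data known, and each name stood on 1 of the 55880 rows of the expression table. They are 10 of the 26 integrin subunit genes listed, and their share of the summed FPKM of all 26 was 96.5 to 96.8% in Control and 96.0 to 96.9% in LMF. FPKM is a level scaled by gene length and depth, as the authors deposited it. All libraries are RNA sequencing of bone marrow-derived dendritic cells of wild-type C57BL/6 mice, males aged 6 weeks. The cells were grown for 6 days in the cytokines GM-CSF (20 ng/mL) and IL-4 (10 ng/mL). Groups come from the sample titles, while another label field gives all 8 libraries 1 treatment. Control cells (4 libraries) were taken as untreated. LMF cells (4 libraries) were incubated for 24 h with ITRs, a name the labels leave unexplained, before a magnetic field of low frequency was applied. RNA was taken 6 h after treatment. No group with ITRs alone or the field alone was analysed here, so the effects of the ITRs and of the field cannot be told apart. Separate animals or cultures are not stated for the 4 libraries of a group, so p-values reflect the spread among these libraries alone, which may be technical.

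Integrins are cell surface receptors made of 1 alpha and 1 beta chain. They bind matrix proteins or counter-receptors outside the cell and link to actin through talin and kindlin at the tail of the beta chain. In leukocytes the β2 chain (Itgb2, CD18) pairs with αL, αM and αX to form LFA-1, Mac-1 and CR4, which bind ICAM proteins and complement fragments. The β1 chain pairs with many alpha chains, among them the fibronectin receptors α5 and α4, and α4 also pairs with β7, the receptor for the gut address protein MAdCAM-1. The αv chain pairs with β1 and β5 in receptors for vitronectin and other ligands with the tripeptide RGD. In mouse dendritic cells αX is the lineage marker CD11c, and αM is CD11b.

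Depth was 17309368 to 21585750 summed counts in Control and 16592672 to 18532878 in LMF, and 14074 genes had enough counts to be tested. All 10 dendritic cell markers examined were measured in every group, with a summed level of 8547 to 9026 CPM in Control and 8575 to 9957 CPM in LMF. CPM is a count scaled to a fixed library total after TMM scaling between libraries, with no correction for gene length. LMF replicate 1 was the lowest LMF library for Itgam, Itgav, Itgax, Itgb1, Itgb2 and Itgb5. It lay furthest below the other LMF libraries, on the log2 scale, for Itgav, Itgax and Itgb2. A fit that weights libraries (limma-voom) gave it the lowest weight, 0.615. Values with and without LMF replicate 1 are given where they bear on a result. In bulk RNA, fewer cells of a type and less RNA per cell cannot be told apart.

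The subunits did not move as a family. Of the 10 genes, all of which passed the filter on low counts, 5 rose in LMF (Itga4, Itga5, Itgal, Itgax and Itgb1), 3 fell (Itgam, Itgb5 and Itgb7) and Itgav and Itgb2 did not pass. The call was an adjusted p under 0.05 in edgeR's quasi-likelihood test over all genes, which called 34.4% of the tested genes, 17.5% higher and 16.9% lower. These shares cover tested genes of every level and were not matched to the level of the 10 genes. The same 8 genes had no overlap between the 4 LMF and the 4 Control libraries in CPM, a separation seen in 31.8% of all tested genes. The median log2 fold change of the 10 genes was 0.13, beside a median near 0 (-0.000221) over all tested genes. The largest changes, near 1.5-fold, were in Itgb7, Itga5 and Itgb5, and their absolute log2 fold changes stood at the 90.4, 90.3 and 89.1 percentiles of all tested genes.

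**Figure D1:**
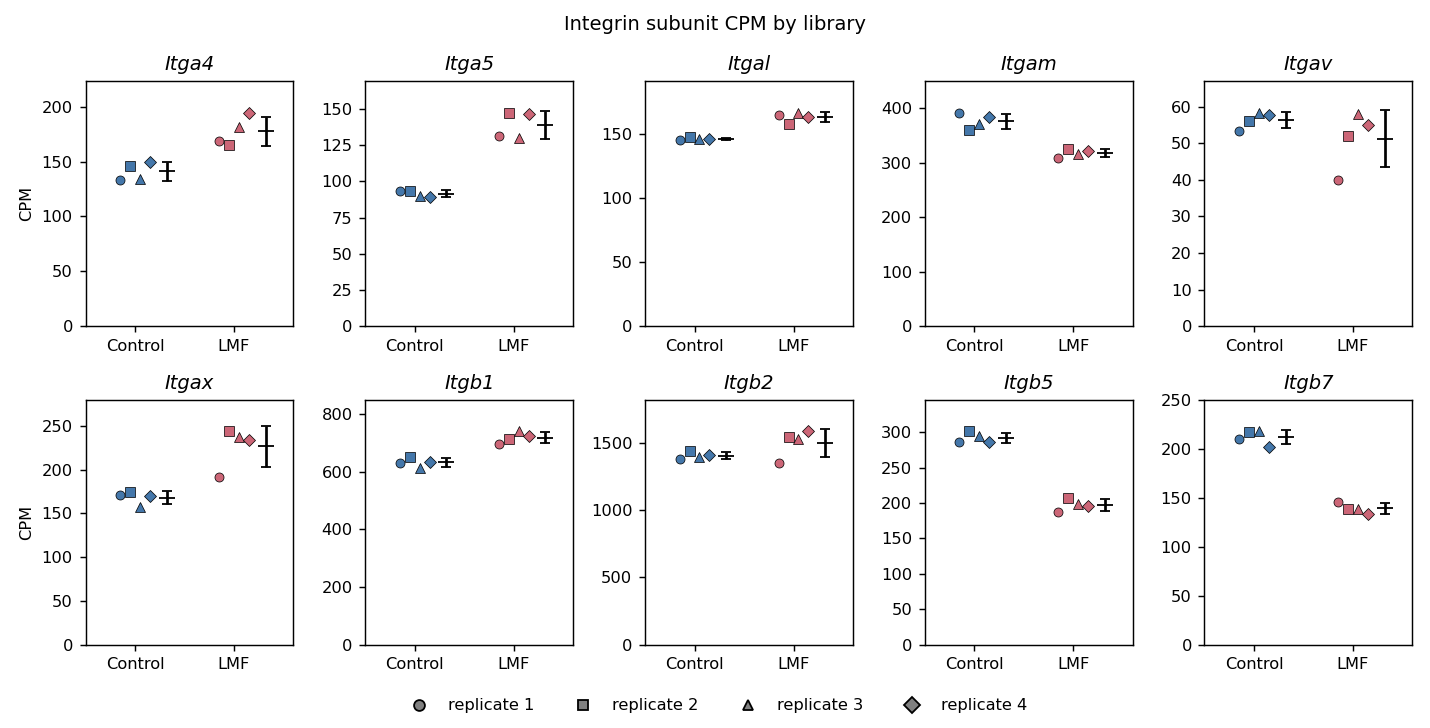
CPM (y axis, from 0) of each integrin subunit in the 4 Control and the 4 LMF libraries. Each symbol is a replicate number, and the black bar beside it is the group mean with its SD. Itga5 rose from 88.9 to 93.5 CPM to 129.8 to 147 CPM, and Itgb7 fell from 202 to 218 CPM to 133 to 146 CPM. LMF replicate 1 is the lowest LMF library for Itgam, Itgav, Itgax, Itgb1, Itgb2 and Itgb5.

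Among the receptors for fibronectin and other matrix ligands, Itga5 rose most. Itga5 (ENSMUSG00000000555), the alpha chain of the main fibronectin receptor, was at 93.4, 93.5, 89.7 and 88.9 CPM in Control replicates 1 to 4 and at 132, 147, 129.8 and 147 CPM in LMF replicates 1 to 4. Every LMF library lay above every Control library. The log2 fold change was 0.60 ± 0.05 (SE, n = 4 each), a 1.52-fold rise (edgeR adjusted p = 7.23e-13).

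Itgb1 (ENSMUSG00000025809), the β1 chain with which α5, α4 and αv pair, was at 632, 650.0, 613 and 635 CPM in Control and at 696, 713, 740.0 and 723 CPM in LMF. The groups did not overlap, but the rise was small, with a log2 fold change of 0.18 ± 0.04 (edgeR adjusted p = 7.28e-05), or 1.14-fold. Itga4 (ENSMUSG00000027009), the alpha chain of the receptors for VCAM-1 and MAdCAM-1, was at 134, 147, 134 and 150.1 CPM in Control and at 169, 165, 182 and 195 CPM in LMF. It rose 1.26-fold (log2 fold change 0.33 ± 0.05, edgeR adjusted p = 2.53e-06), again without overlap. Itga4 overlaps Cerkl over 2581 bases on the opposite strand, and Cerkl had 6 to 18 counts per library.

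Itgav (ENSMUSG00000027087), the αv chain of RGD receptors, had the lowest level of the 10 genes in CPM and FPKM and did not pass. It was at 53.3, 56.1, 58.4 and 57.7 CPM in Control and at 40.1, 52.0, 58.1 and 55.1 CPM in LMF. The groups overlapped, and LMF replicate 1 lay below all other libraries. The log2 fold change was -0.13 ± 0.09 with a 95% interval from -0.32 to 0.05 (edgeR adjusted p = 0.26), and it was -0.03 (adjusted p = 0.696) without LMF replicate 1 and -0.20 (adjusted p = 0.061) without LMF replicate 3. On the opposite strand Itgav overlaps Gm13684 (22084 bases, 0 to 3 counts per library) and Dnmt3l-ps1 (1253 bases, 0 to 1 counts).

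Itgb5 and Itgb7 had the largest decreases of the family. Itgb5 (ENSMUSG00000022817), the β5 chain that pairs with αv alone and takes part in vitronectin binding and in the uptake of dying cells, was at 287, 301, 294 and 287 CPM in Control. It was at 187, 207, 198 and 195 CPM in LMF, below every Control library. Itgb5 fell by 32.6% (log2 fold change -0.57 ± 0.04, edgeR adjusted p = 2.51e-14).

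Itgb7 (ENSMUSG00000001281), the β7 chain of the gut-homing receptor with α4 and of the E-cadherin receptor with αE, was at 210.2, 217, 217 and 202 CPM in Control. In LMF it was at 146, 139, 138 and 133 CPM, and here LMF replicate 1 was the highest of the 4. Itgb7 fell by 34.4% (log2 fold change -0.61 ± 0.04, edgeR adjusted p = 1.79e-14). Its alpha partner Itgae (αE) was near the floor at 22 to 39 counts per library and did not pass (log2 fold change 0.12 ± 0.27, edgeR adjusted p = 0.785).

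The β2 chain did not pass the test, while its alpha partners went different ways. Itgb2 (ENSMUSG00000000290) was at 1384, 1442, 1395 and 1410.0 CPM in Control and at 1354, 1547, 1534 and 1589 CPM in LMF. LMF replicate 1 lay below every Control library and the other LMF libraries above them all. The log2 fold change was 0.10 ± 0.04 and did not pass (edgeR adjusted p = 0.0533). Without LMF replicate 1 it passed at 0.14 (adjusted p = 1.23e-04), and it also passed narrowly with the replicate number as a block (0.09, adjusted p = 0.0471).

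Itgax (ENSMUSG00000030789), CD11c, was at 171, 174, 158 and 169.8 CPM in Control and at 192, 244, 238 and 234 CPM in LMF. All LMF libraries were higher than all Control libraries, and replicate 1 was the lowest of them. The rise was 1.35-fold (log2 fold change 0.43 ± 0.06, edgeR adjusted p = 9.45e-05), and 0.50 on the log2 scale without LMF replicate 1. Itgam (ENSMUSG00000030786), CD11b, was at 392, 359.8, 371 and 384 CPM in Control and at 309, 326, 316.5 and 322 CPM in LMF. It fell by 15.5% without overlap (log2 fold change -0.24 ± 0.04, edgeR adjusted p = 2.45e-06). Itgal (ENSMUSG00000030830), CD11a, was at 145, 147, 146 and 145 CPM in Control and at 164, 157, 166 and 163 CPM in LMF, a 1.12-fold rise (log2 fold change 0.16 ± 0.04, edgeR adjusted p = 0.00165).

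Itgam and Itgax are neighbours on chromosome 7. In the table's own coordinates, whose build the file does not name, Itgam lies from 127661812 to 127717663 and Itgax from 127728719 to 127749829, both on the plus strand and 11055 bases apart. Itgad, 3718 bases beyond Itgax, had 0 to 3 counts per library. Of these 3 neighbouring alpha chain genes, 1 fell, 1 rose and 1 had too few counts to be tested. The gene model Gm49368 spans 55809 bases of Itgam on the same strand and had 5 to 20 counts per library. How reads in such an overlap were assigned is not given in the sources used here, which leaves the Itgam level uncertain.

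Macrophage, monocyte and neutrophil marker levels differed between the groups as well. Over all tested genes 17.5% were called higher and 16.9% lower. The 10 macrophage markers, none at 0, summed to 4965 to 5553 CPM in Control and 2943 to 3180 CPM in LMF, with 8 lower and none higher. Apoe, named after its values were seen, made up most of that difference, at a mean of 3162 CPM in Control and 1302 CPM in LMF, and the median log2 fold change of the list was -0.59. Adgre1 (387 CPM in Control and 400.2 CPM in LMF) and Cd68 (577 and 570.2 CPM), named likewise, did not pass. The 7 monocyte markers, none at 0, summed to 11100 to 12070 CPM and 9022 to 9927 CPM, with 2 higher and 3 lower. Their median log2 fold change was -0.021, and most of the difference in the sum was in Chil3 (named likewise), at 7151 and 5740.0 CPM. The 10 neutrophil markers, none at 0, summed to 1682 to 1760 CPM and 1842 to 2067 CPM, with 5 higher and 1 lower. Macrophages and monocytes express integrin subunits too, and the part of these marker differences in the integrin results was not tested. Itgax is itself one of the dendritic cell markers, of which 7 rose and 1 fell, and their sum was highest in LMF replicate 1 at 9957 CPM. The sums of the other lists in Control and LMF were 90.6 to 104 and 110.3 to 121 CPM for mast cells and basophils, with Mcpt4 at 0, 25.5 to 30.9 and 28.4 to 33.5 CPM for eosinophils, and 53.0 to 58.1 and 44.1 to 51.8 CPM for B cells. They were 10.7 to 12.1 and 10.9 to 14.6 CPM for T and NK cells, 309 to 328 and 335 to 386 CPM for erythroid cells and megakaryocytes, and 23.1 to 25.9 and 25.7 to 31.7 CPM for stromal and endothelial cells.

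**Figure D2:**
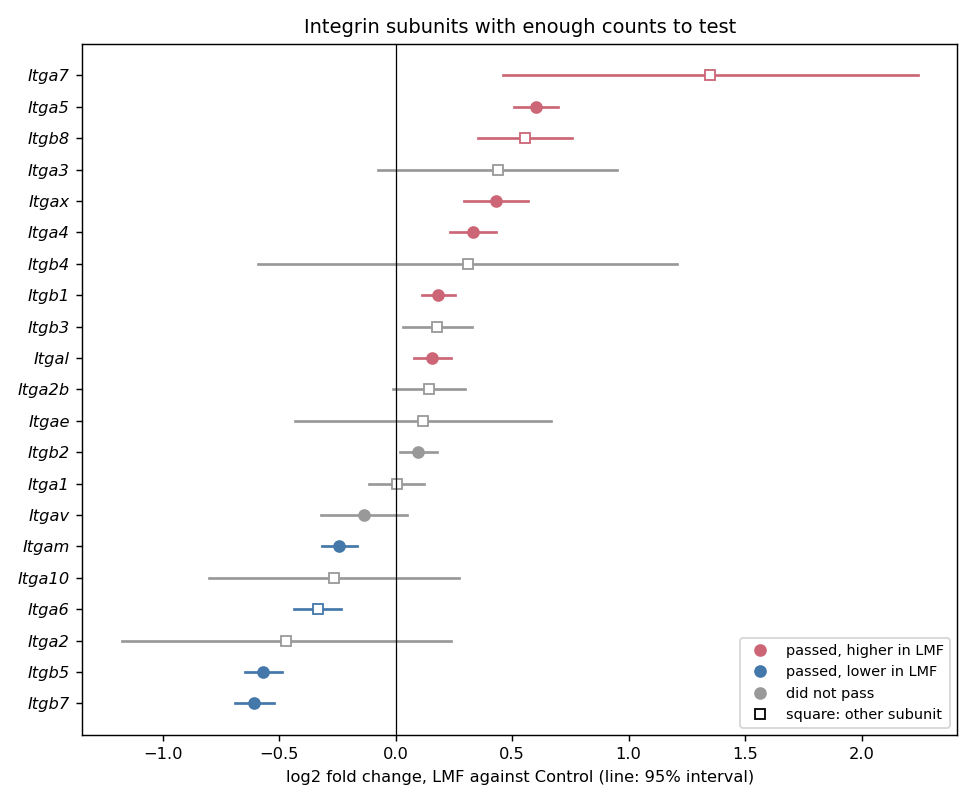
Log2 fold change of LMF against Control (x axis) for the 21 integrin subunits with enough counts, with 95% intervals as lines. Filled circles are the 10 subunits described here and open squares the others. Itga7, the most extreme, rests on 4 to 19 counts per library.

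Counted per length, the beta chains led the order of levels. In Control, Itgb2 was highest at 462 ± 7.14 FPKM (SD, n = 4), followed by Itgb1 at 155 ± 3.74 FPKM and Itgb5 at 82.3 ± 1.95 FPKM. Itgb7 (76.5 ± 2.89 FPKM) and Itgam (75.0 ± 3.03 FPKM) came next, with overlapping ranges. The lower levels were those of Itgax at 35.1 ± 1.55 FPKM, Itgal at 22.2 ± 0.174 FPKM, Itga5 at 18.6 ± 0.591 FPKM, Itga4 at 10.1 ± 0.542 FPKM and Itgav at 5.25 ± 0.181 FPKM. Apart from Itgb7 and Itgam, the ranges of neighbours in this order did not overlap.

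In LMF the order changed in the middle. Itgam, at 63.1 ± 1.13 FPKM, stood above Itgb5 at 55.2 ± 1.97 FPKM and Itgb7 at 49.96 ± 1.98 FPKM, and the ranges of Itgb7 and Itgax (47.0 ± 4.78 FPKM) overlapped. Itga5, at 28.0 ± 1.80 FPKM, stood above Itgal at 24.7 ± 0.739 FPKM. These places rest on the gene length behind the deposited FPKM, which differed from the listed length for all 10 genes. Per listed length, Itgam in LMF (18.6) was below Itgb7 (31.8) and Itgb5 (19.6, overlapping), and Itga5 (9.35) was above Itgal (6.39) in Control already, so neither change of order held on that scale. Itgb7 also stood above Itgb5, and Itgal below Itga4, in both groups there. Itgb2 and Itgb1 were the highest and Itgav the lowest per listed length and per longest GENCODE M21 coding transcript too.

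**Figure D3:**
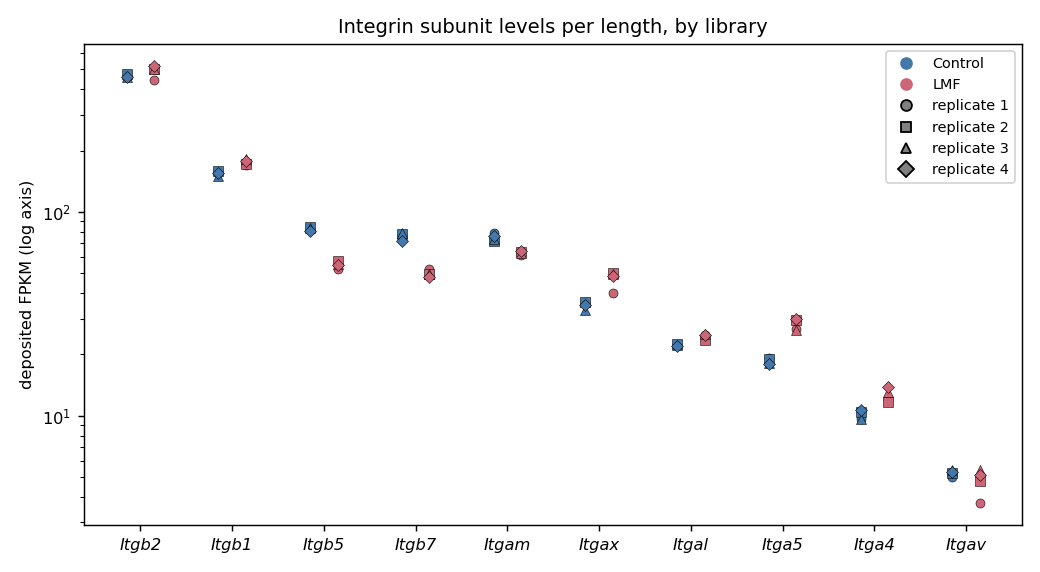
Deposited FPKM (y axis, log scale) of the 10 subunits in each library, ordered by their Control mean. Itgb2 is at 444 to 520.2 FPKM and Itgav at 3.74 to 5.44 FPKM. In Control Itgb5 is above Itgam and Itgb7 overlaps it, and in LMF both are below Itgam, an order that depends on the gene length used.

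The makeup of the chain transcripts shifted. Of the summed FPKM of the 18 alpha chains, Itgam made up 37.9 to 40.6% in Control and 30.7 to 31.8% in LMF, while Itgax went from 17.7 to 19.2% to 20.6 to 24.4% and Itga5 from 9.46 to 10.02% to 12.8 to 14.3%. Of the 8 beta chains, Itgb2 made up 58.5 to 59.3% in Control and 60.6 to 64.1% in LMF. Itgb5 went from 10.4 to 10.6% to 6.78 to 7.28% and Itgb7 from 9.35 to 10.1% to 5.91 to 7.20%. None of these ranges overlapped between the groups, nor did those of Itga4 and Itgb1. The shares of Itgal (11.49 to 11.97% in Control and 11.51 to 12.94% in LMF) overlapped. So did those of Itgav (2.587 to 2.925% in Control and 1.931 to 2.638% in LMF). All these shares rest on the gene length behind the deposited FPKM. The shares are a description, since a fall of 1 chain raises the shares of the others.

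The summed RNA level of the 3 alpha partners of Itgb2 overlapped between the groups (129.0 to 137.0 FPKM in Control and 126.5 to 138 FPKM in LMF). In LMF the Itgam (CD11b) share of this sum was lower and the Itgax (CD11c) share higher. Itgam made up 55.0 to 57.5% of the sum in Control and 45.7 to 48.7% in LMF. Itgax made up 25.5 to 27.8% and 31.6 to 36.4%. Itgal overlapped, at 16.3 to 17.2% and 17.2 to 19.8%. Itgam had the highest level of the 3 in every library on the deposited FPKM. Per listed length Itgax was higher than Itgam in both groups, at 25.6 to 28.3 against 21.1 to 23.2 in Control and 31.1 to 39.03 against 18.1 to 18.9 in LMF.

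**Figure D4:**
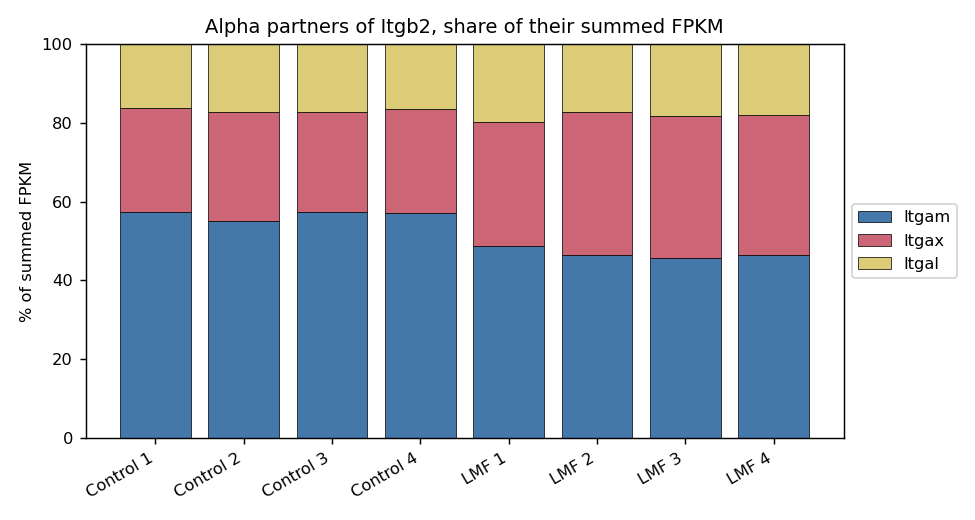
Share of Itgam, Itgax and Itgal (stacked, % of their summed FPKM) in each of the 8 libraries. The Itgam share is 55.0 to 57.5% in Control and 45.7 to 48.7% in LMF.

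Because an integrin needs both chains, the RNA ratio of alpha to beta partner was compared in 8 known pairs. Chain protein and assembled receptors were not measured here. The change of the log2 ratio was tested with an exact two-sided permutation test of 4 against 4 libraries, whose smallest possible p is 0.0286, with Benjamini-Hochberg adjustment over the 8 pairs. The ratio differed for 6 pairs, each at the smallest p the design allows and an adjusted p of 0.0381. For the α4β1 and αLβ2 pairs it did not pass. The 8 pairs share members, so their results are not separate from each other. For Itga4 over Itgb7 the outcome was fixed, since both genes separated the groups, in opposite directions. Of single tested genes 31.8% had no overlap between the groups, and how often other gene pairs separate was not computed.

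The largest shift was between Itga4 and Itgb7, which moved in opposite directions. The FPKM ratio was 0.126, 0.134, 0.122 and 0.147 in Control and 0.229, 0.236, 0.261 and 0.290 in LMF. The log2 ratio rose by 0.94 ± 0.10 (SE). With its other partner Itgb1, Itga4 had a ratio of 0.0652 ± 0.00307 (SD, n = 4) in Control and 0.0722 ± 0.00456 in LMF. That change of 0.15 ± 0.06 did not pass (exact permutation p = 0.0571, adjusted p = 0.0653).

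Itga5 also rose more than Itgb1. Their FPKM ratio was 0.122, 0.119, 0.121 and 0.116 in Control and 0.156, 0.171, 0.145 and 0.168 in LMF, a log2 change of 0.42 ± 0.06. Itgav, by contrast, fell against Itgb1 (log2 change -0.33 ± 0.11) and rose against Itgb5 (0.42 ± 0.11), and of these beta chains Itgb1 rose and Itgb5 fell. Without LMF replicate 1 these changes were -0.23 and 0.51.

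Within the β2 family the ratio of Itgam to Itgb2 was 0.163 ± 0.00850 in Control and 0.129 ± 0.00691 in LMF (SD, n = 4), a log2 change of -0.34 ± 0.05. The ratio of Itgax to Itgb2 was 0.0759 ± 0.00289 and 0.0956 ± 0.00466, a change of 0.33 ± 0.05. For Itgal the ratio was 0.0481 ± 6.00e-04 and 0.0504 ± 0.00421, with overlapping groups (log2 change 0.06 ± 0.06, exact permutation p = 0.400, adjusted p = 0.400). LMF replicate 1, at 0.0564, was the highest of all, and without it the change was 0.0076.

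**Figure D5:**
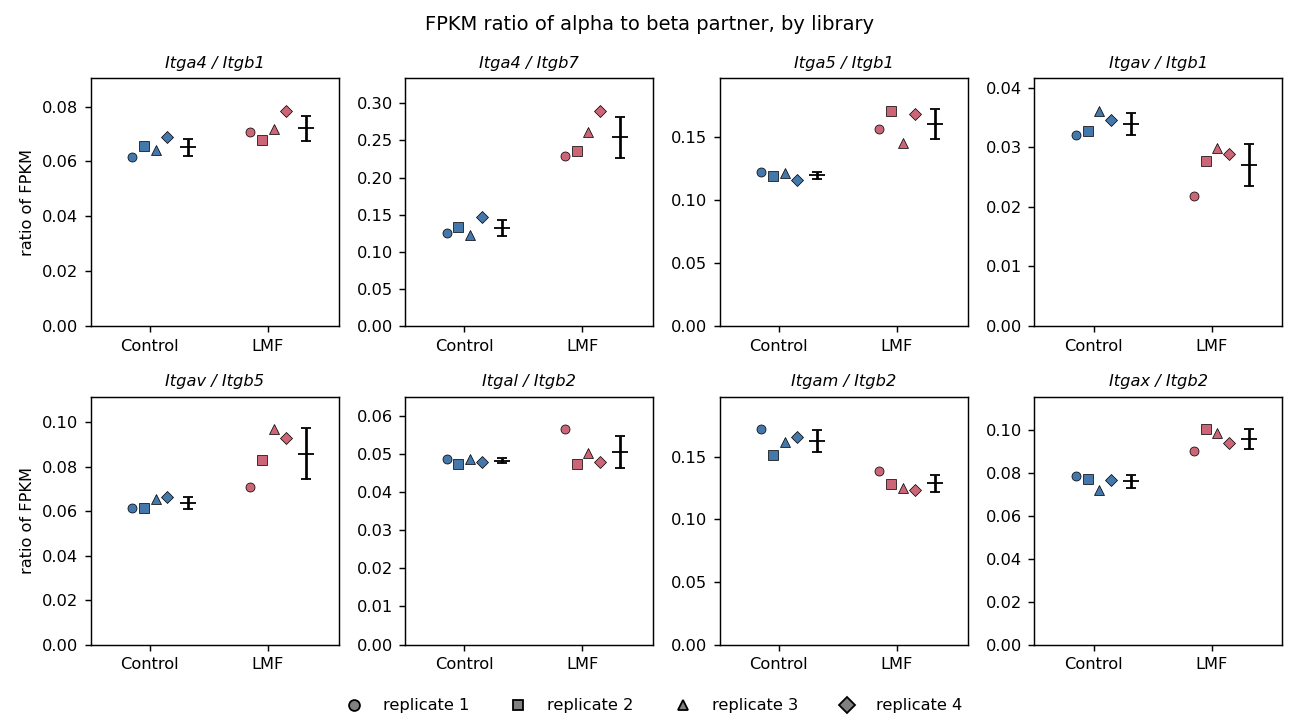
FPKM ratio (y axis, from 0) of the alpha to the beta chain in 8 known pairs, by library, with group mean and SD beside the points. Itga4 over Itgb7 goes from 0.122 to 0.147 in Control to 0.229 to 0.290 in LMF, and Itgal over Itgb2 overlaps between the groups.

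To show the regulatory sequence beside these values, the bases before the start site are printed for the largest rise (Itga5), the largest decreases (Itgb5 and Itgb7) and the adjacent pair that moved apart (Itgam and Itgax). They are from RefSeq, build GRCm38.p6, which held an entry for 8 of the 10 genes (Itgal and Itgb2 were not among them), and are read 5′ to 3′ on the gene's strand. Each holds up to the 250 bases before the start site, less bases annotated as exon. The transcribed bases that follow the start site were found in a GENCODE M21 transcript for each of these genes except Itga5. Capitals mark matches, on either strand, to 7 motifs, given here by the letters searched: GAGGAA for PU.1, a factor of myeloid cells, GGGA, any 4 bases and CC for NF-kappaB, TGANTCA for AP-1, GGGCGG for Sp1, TGACGTCA for the cyclic AMP response element, CCAAT for NF-Y and CACGTG for the E-box.
Itga5 (chr15:103366792-103367041, minus strand): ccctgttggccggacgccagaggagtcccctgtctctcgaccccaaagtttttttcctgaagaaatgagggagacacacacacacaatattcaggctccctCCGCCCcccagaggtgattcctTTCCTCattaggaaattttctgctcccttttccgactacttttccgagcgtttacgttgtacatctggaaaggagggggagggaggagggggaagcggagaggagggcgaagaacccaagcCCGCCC
Itgb5 (chr16:33829415-33829664, plus strand): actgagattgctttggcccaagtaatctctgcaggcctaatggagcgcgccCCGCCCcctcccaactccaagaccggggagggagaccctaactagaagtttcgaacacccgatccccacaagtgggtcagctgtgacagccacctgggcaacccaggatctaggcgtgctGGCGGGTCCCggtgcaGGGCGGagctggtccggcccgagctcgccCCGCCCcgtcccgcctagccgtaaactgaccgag
Itgb7 (chr15:102231945-102232185, minus strand): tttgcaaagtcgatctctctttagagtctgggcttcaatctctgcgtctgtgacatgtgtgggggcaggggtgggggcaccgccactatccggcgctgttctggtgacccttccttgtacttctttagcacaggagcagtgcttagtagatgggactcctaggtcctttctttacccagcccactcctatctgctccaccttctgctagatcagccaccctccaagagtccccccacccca
Itgam (chr7:128062390-128062639, plus strand): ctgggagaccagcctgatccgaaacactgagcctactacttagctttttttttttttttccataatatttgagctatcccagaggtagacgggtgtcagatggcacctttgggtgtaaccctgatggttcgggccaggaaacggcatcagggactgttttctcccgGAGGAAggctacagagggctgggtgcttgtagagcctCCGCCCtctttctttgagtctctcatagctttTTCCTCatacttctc
Itgax (chr7:128129300-128129525, plus strand): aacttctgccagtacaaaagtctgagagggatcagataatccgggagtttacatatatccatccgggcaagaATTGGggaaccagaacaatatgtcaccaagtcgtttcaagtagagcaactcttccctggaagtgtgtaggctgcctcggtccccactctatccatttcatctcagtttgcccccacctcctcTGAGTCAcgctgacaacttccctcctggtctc

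Motifs were searched in the full 250 bases before the start site of every gene, also where a shorter run is printed. Distances count to the start site of the entry, and the printed Itgax and Itgb7 runs end before it, where annotated exon begins. The 250 bases of Itgam held GAGGAA at 84 and, on the opposite strand, 15 bases before the start site, and those of Itga5 held it at 127, a motif present in 23.3% of the 250-base windows of 32851 promoters. Itga5 also held GGGCGG 149 and 6 bases before the start, Itgam held it at 47 and Itgb5 held it 3 times, against 32.7% of all windows with at least 1. Itgax held TGANTCA at 56 bases (6.75% of windows) and CCAAT at 178 (33.8%). Itgb5 held the NF-kappaB motif at 79 bases (17.6%), overlapping no other match. Itgb7 held none of the 7. The remaining entries were 1 GGGCGG in Itga4, 2 GAGGAA in Itgav and 1 of each in Itgb1. No entry held TGACGTCA (1.55%) or CACGTG (6.02%). A match describes letters in this window and is not a bound site.

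Of the other 16 integrin subunits 11 had enough counts to be tested, and 2 rose and 1 fell. Over all tested genes 34.4% were called in either direction. Itga6, the laminin-binding α6 chain, fell from 84.4 ± 2.58 to 66.9 ± 2.42 CPM (SD, n = 4, log2 fold change -0.33 ± 0.05, edgeR adjusted p = 1.18e-06). Itgb8, which with αv activates latent TGF-beta, rose from 13.97 ± 2.05 to 20.5 ± 1.36 CPM (0.56 ± 0.10, edgeR adjusted p = 2.6e-05). Itga7 was called higher (1.35 ± 0.44, edgeR adjusted p = 0.015) from 4 to 8 counts in Control and 11 to 19 in LMF, and lost the call without Control replicate 2 (adjusted p = 0.0596) or LMF replicate 4 (0.0600).

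Itgb3, the β3 chain of the other main αv receptor, was at 48.2 ± 5.15 CPM in Control and 54.6 ± 4.91 CPM in LMF and did not pass (log2 fold change 0.18 ± 0.07, edgeR adjusted p = 0.0521). It passed with the replicate number as a block (0.18, adjusted p = 0.0213) and with no filter on low counts (0.17, adjusted p = 0.0264). It also passed without Control replicate 2 (adjusted p = 0.032), Control replicate 3 (0.0444), LMF replicate 2 (0.0389) or LMF replicate 4 (0.0438), while its log2 fold change was 0.10 without Control replicate 4 and 0.11 without LMF replicate 1. Itga2b, the platelet αIIb chain and a megakaryocyte marker, was at 54.1 ± 3.53 and 59.7 ± 8.05 CPM (0.14 ± 0.07, adjusted p = 0.155). It passed without LMF replicate 4 (0.19, adjusted p = 0.0393), while without LMF replicate 1, its highest library at 71.4 CPM, its log2 fold change was 0.04. Itga1, a collagen-binding chain, was at 49.4 ± 2.71 and 49.5 ± 2.26 CPM (log2 fold change 0.0047, 95% interval -0.11 to 0.12, edgeR adjusted p = 0.964). Itga2, Itga3, Itga10, Itgae and Itgb4 were at or below 3.24 CPM in every library and did not pass.

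Among 20 genes that switch integrins on or bind their tails, 4 rose, 6 fell and 10 did not pass, with a median log2 fold change of 0.08. Over all tested genes 17.5% were higher and 16.9% lower. This list and those below were chosen with earlier results of these data known. Fyb, the adaptor ADAP that links the T cell and myeloid signalling machinery to integrins, rose from 123 ± 3.69 to 166 ± 7.93 CPM (0.43 ± 0.04, edgeR adjusted p = 2.44e-10). Sipa1, which turns off the integrin activator Rap1, fell from 221 ± 13.8 to 169 ± 7.08 CPM (-0.39 ± 0.04, edgeR adjusted p = 6.46e-09). Flna, filamin A, an actin crosslinker that competes with talin for the beta tail, rose from 1192 ± 5.95 to 1449 ± 58.3 CPM (0.28 ± 0.03, edgeR adjusted p = 3.51e-08). Talin and kindlin-3 were looked at after their values were seen: Tln1 was at 0.06 ± 0.04 and did not pass, and Fermt3 at -0.10 ± 0.04 passed at an adjusted p of 0.0202.

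More genes of adhesion signalling rose than fell. Of 21 tested genes of adhesion signalling and actin linkage, out of 23 listed, 11 rose, 1 fell and 9 did not pass (median 0.14). Over all tested genes 17.5% were higher and 16.9% lower. Fgr, a Src family kinase that acts downstream of β2 integrins in myeloid cells, rose from 97.7 ± 4.83 to 167 ± 4.68 CPM (0.77 ± 0.04, edgeR adjusted p = 1.82e-16). Vasp, which speeds actin filament growth, rose from 249 ± 10.9 to 355 ± 22.1 CPM (0.51 ± 0.04, edgeR adjusted p = 4.89e-12).

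Of 22 integrin ligands 15 could be tested, and 7 rose, 3 fell and 5 did not pass (median 0.29). The shares over all tested genes were 17.5% higher and 16.9% lower. Icam1, the counter-receptor of β2 integrins, was at 150.2 to 154.9 CPM in Control and 248 to 269.6 CPM in LMF (log2 fold change 0.76 ± 0.04, edgeR adjusted p = 1.37e-17). C3, whose fragment iC3b binds αMβ2 and αXβ2, rose from 489 ± 19.0 to 766 ± 35.2 CPM (0.65 ± 0.04, edgeR adjusted p = 5.54e-16). Fn1, fibronectin, the ligand of α5β1, fell from 1342 ± 40.8 to 913 ± 80.6 CPM (-0.56 ± 0.05, edgeR adjusted p = 5.27e-09), opposite in sign to Itga5. Fn1 is also one of the monocyte markers whose levels are given above.

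Of 13 tetraspanins and other proteins that sit beside integrins in the membrane, 7 rose, 2 fell and 4 did not pass (median 0.17). The shares over all tested genes were 17.5% higher and 16.9% lower. Slc3a2, the CD98 heavy chain that binds beta tails and carries amino acid transporters, rose from 266 ± 2.33 to 408 ± 10.1 CPM (0.62 ± 0.04, edgeR adjusted p = 3.97e-16). Cd44, the hyaluronan receptor, rose from 346 ± 13.5 to 465 ± 26.04 CPM (0.43 ± 0.04, edgeR adjusted p = 1.1e-10). Plaur, the urokinase receptor, rose from 208 ± 3.37 to 272 ± 25.0 CPM (0.38 ± 0.05, edgeR adjusted p = 4.09e-07).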

How the data were processed

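The poly(A) RNA was extracted with Trizol, per the labels' protocols; strand is not mentioned there. The submitters' processing notes name Trimmomatic, HISAT2 2.0.5, HTSeq, DESeq2 and mm10 without roles. For each library the deposited file has a column of raw read counts and a column of FPKM computed by the authors. No member has its GENCODE M21 (mm10) start and end, so gene coordinates are the table's own.

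Groups come from sample titles, because another field gives all 8 libraries 1 treatment. Counts were tested with edgeR 4.0.16 in R 4.3.3 (quasi-likelihood F test, robust, no covariate) on genes kept by filterByExpr, scaled by TMM, and p-values were adjusted by Benjamini-Hochberg across all 14074. SE was derived from the log2 fold change and its F value, and 95% intervals are not adjusted. The test was checked on simulated counts. Partner ratios were tested on log2 CPM ratios (scipy 1.17.1). Library pairs differed by at least 3.50 chi-square per degree of freedom, so none looked like copies.

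Members and lists were chosen with earlier results of these data known. Named genes were the members, tested other subunits and the 3 called genes of smallest adjusted p per pathway list, of which 1 is not reported here. Alternatives were other scalings and filters, DESeq2 1.42.0, limma 3.58.1 (voom with sample weights, and trend on log2 FPKM plus 1 or 0.1), gene length offsets, a replicate block and leaving out each library. Levels per M21 coding transcript were added after seeing the data.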

Additional observations from a re-analysis of the deposited data

Results flagged for a closer look

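In 82 groups of 4 libraries 3 had 1 library apart from the others by Dixon's test, where chance flags about 1 in 20, or 4.1. For Itgb8 the library apart was LMF replicate 1, at 18.5 CPM, and the rest of that group spanned 21.03 to 21.5 CPM. For Itga2, a low gene, it was LMF replicate 2, at 0.733 CPM beside 0.965 to 1.01 CPM. For Icam1 it was Control replicate 1, at 154.9 CPM beside 150.2 to 150.8 CPM.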

How the results depend on the processing

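The members' calls held in 186 of 190 refits, and the 4 others all made Itgb2 pass: limma-voom with sample weights (0.11, adjusted p = 0.0137), no filter on low counts (0.09, adjusted p = 0.0458), the replicate block (0.09, adjusted p = 0.0471) and leaving out LMF replicate 1 (0.14, adjusted p = 1.23e-04). No sign of a member turned. With the replicate number as a block 4774 genes were called, beside 4845 without, with 6 members higher and 3 lower. Same-numbered libraries did not deviate together (correlations -0.0129 to 0.0284), and 1 of 4 Control libraries correlated best with its own number. These values cannot show whether same-numbered libraries share an animal or culture, which is not stated. Without 1 library, 4307 to 5047 genes were called, with 5 to 6 members higher and 3 lower. Itga1 turned sign with upper-quartile factors (-0.0051), library size alone (-0.0023), no filter (-0.0038), length offsets (-0.034), log2(FPKM + 1) (-0.00086) and log2(FPKM + 0.1) (-0.0010). Without 1 library it ranged from -0.031 to 0.028 and was below 0 without Control replicate 3 or 4 (-0.0054) or LMF replicate 3 (-0.026) or 4 (-0.0092), and it passed in none. Leaving 1 library out of a partner ratio makes the test too small to pass, so only values were compared, and no called ratio turned sign. Itga7, at 4 to 19 counts per library, is limited by depth and did not pass on log2(FPKM + 1) (adjusted p = 0.118).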
